A study of Mus musculus with 9 samples.

Results

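Cytokine receptors carry the growth signals that blood progenitors receive, and 9 of their genes (Kit, Flt3, Csf1r, Csf2ra, Il3ra, Csf2rb, Il7r, Epor and Csf3r) were followed through the maturation of cultured mouse megakaryocytes, the cells that release platelets. The members were given as a list of gene symbols, and every probe set annotated to 1 of them alone was taken, which gave 14 probe sets out of 20380 annotated to a single gene. The 9 genes are among 12393 genes on the array, and all 9 passed the filter on low values used for testing. Marrow or fetal liver cells had been grown with thrombopoietin, and megakaryocytes were sorted by flow cytometry for high CD41, an integrin chain that marks the lineage, and by forward scatter, a measure of size. MKP, MK3 and MK4 have 2 arrays each and MK6 has 3. MK3, MK4 and MK6 carry the numbers of the days on which cultures were collected (3, 4 and 6), whereas no day is stated for MKP. All groups share the thrombopoietin culture, and the labels give neither a mouse strain, an age nor the tissue of each array. Whether arrays of 1 stage stem from different cultures is not stated, so the p-values reflect the spread among these particular samples, which may be technical.

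Kit, Flt3 and Csf1r are receptor tyrosine kinases for stem cell factor, Flt3 ligand and macrophage colony-stimulating factor. The other members lack a kinase domain and signal through bound Jak kinases, which activate Stat factors. Csf2ra and Il3ra bind GM-CSF and interleukin-3 and share the signalling chain Csf2rb, Il7r binds interleukin-7 together with the common gamma chain, and Epor and Csf3r form homodimers for erythropoietin and G-CSF. Most of these receptors are known from other lineages, such as granulocytes, macrophages, lymphocytes and red cell precursors, and Kit also from stem cells and mast cells.

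The cell type markers and the RNA controls set the frame for these values. Megakaryocyte markers summed to 16879 to 20119 on the MK6 arrays, 18292 to 22530 on MK4, 10152 and 22873 on MK3, and 9647 and 10187 on MKP, in scaled signal over 10 markers, none of which was below the filter on all 9 arrays. Pf4 was the largest term, at 7265 to 11328 on MK6 and 6493 and 5453 on MK4. In MK6 against MKP, 2 of the 10 (Itga2b and Vwf) were higher and 0 lower at an adjusted p below 0.05 in limma. These shares were 2.76% and 2.94% over all tested genes. In MK6 against MK4 the median difference of the 10 was -0.79 log2 units, and 0 passed that threshold (4 at an unadjusted p below 0.05). Markers of neutrophils, macrophages, mast cells and hepatocytes were also measured, and their sums are given beside the receptors they touch. The ratio of 3' to 5' signal of the beta-actin control, which is high in fragmented RNA, was 1.49, 1.33 and 3.21 on MK6 replicates 1, 2 and 3 and 0.957 to 1.09 on the 6 other arrays. The same ratio of the Gapdh control was 0.996, 1.13 and 3.27 on these MK6 arrays and 0.805 to 0.970 on the 6 others. Both controls were thus far above the other arrays on MK6 replicate 3 only. MK6 replicate 1 is the array whose title has no number. The deposited trimmed means of replicates 1 and 3, 103 and 102, were the lowest of all arrays (up to 221). Results are therefore also given without these 2 arrays. In such sorted bulk samples, fewer cells of a type and less RNA per cell cannot be told apart.

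In MK6 against MKP, Il7r was higher and Kit and Csf3r were lower. Thus 3 of the 9 receptor genes were called in limma at a Benjamini-Hochberg adjusted p below 0.05 (1 higher and 2 lower), where 5.69% of all 9397 tested genes were called (2.76% higher and 2.94% lower). The median difference was -0.30 log2 units over the 9 receptors and 0.13 over all tested genes. The arrays of the 2 stages did not overlap for 6 of the 9 receptors, and for 43.3% of all tested genes. Of these, Il7r and Epor were higher (24.5% of all genes were), and Kit, Csf1r, Csf2ra and Csf3r were lower (18.8% of all genes). The F test over the 4 stages called Csf3r and Il7r, 2 of 9, where 2.79% of all genes were called.

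No receptor gene was called between neighbouring stages in limma. For MK3 against MKP the count was 0 of 9 (3 at an unadjusted p below 0.05), with 0.0532% of all genes called. For MK4 against MK3 it was 0 of 9 (1 unadjusted), with 0.0106% of all genes called. For MK6 against MK4 it was 0 of 9 (4 unadjusted), with 0.0213% of all genes called. With the mean of the 3 later stages set against MKP it was 0 of 9 (4 unadjusted), with 0.309% of all genes called (0.0639% lower). The arrays of MK3 and MKP did not overlap for 5 receptors (45.9% of all genes), with Csf1r, Il7r and Epor higher (19.4%) and Kit and Csf3r lower (26.5%). Those of MK4 and MK3 did not overlap for 2 receptors (30.2% of all genes), of which 0 were higher (17.5%) and Kit and Csf1r lower (12.7%). Those of MK6 and MK4 did not overlap for 4 receptors (24.7% of all genes), of which 0 were higher (14.8%) and Kit, Csf1r, Csf2ra and Csf3r lower (9.82%). These comparisons share arrays and are not independent of each other.

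**Figure D1:**
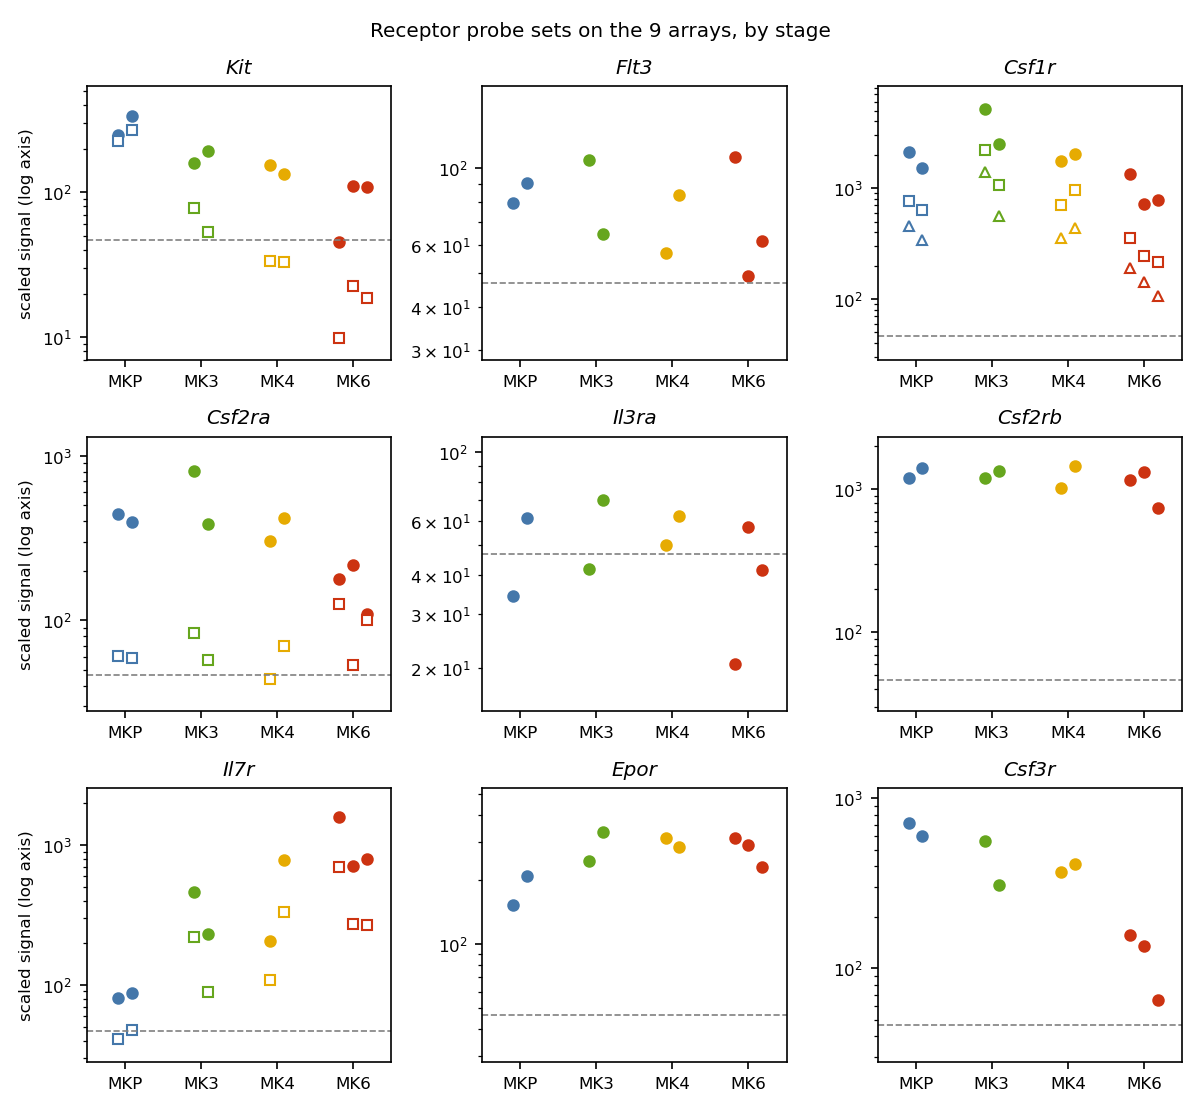
Scaled signal (log axis) of the 14 receptor probe sets on the 9 arrays, by stage. Filled circles are the probe set used for the gene, open squares and triangles its other probe sets, and the dashed line the filter at 46.7. Both Kit probe sets are lowest in MK6, both Il7r probe sets are lowest in MKP, and the 3 Csf1r probe sets are highest in MK3.

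The 250 bases upstream of the annotated start are shown for the 3 called receptors, and for Epor as a receptor whose promoter is known to hold a GATA site, so that the promoters of the genes that moved can be read beside their values. The sequences are RefSeq's on GRCm38.p6, whose table held 7 of the 9 members, and run 5' to 3' on the strand of the gene. The windows are chr5:75574737-75574986 (plus strand) for Kit, chr4:126024409-126024658 (plus) for Csf3r, chr15:9529877-9530126 (minus) for Il7r and chr9:21963577-21963826 (minus) for Epor. Capitals mark matches, on either strand, to GATAA (GATA factors), AGGAAG (ETS factors such as PU.1), GTAAACA (FoxO factors) or TGTGGT (Runx factors).
Kit: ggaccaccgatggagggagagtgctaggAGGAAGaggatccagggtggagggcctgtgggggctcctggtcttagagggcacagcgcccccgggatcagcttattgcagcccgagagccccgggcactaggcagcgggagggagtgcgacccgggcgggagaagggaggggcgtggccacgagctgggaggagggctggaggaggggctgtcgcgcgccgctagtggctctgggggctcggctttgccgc
Csf3r: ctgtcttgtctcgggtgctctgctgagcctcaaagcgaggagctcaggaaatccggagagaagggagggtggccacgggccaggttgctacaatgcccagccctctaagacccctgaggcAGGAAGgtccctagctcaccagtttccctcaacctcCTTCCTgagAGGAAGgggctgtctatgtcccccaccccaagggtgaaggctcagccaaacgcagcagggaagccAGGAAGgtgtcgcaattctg
Il7r: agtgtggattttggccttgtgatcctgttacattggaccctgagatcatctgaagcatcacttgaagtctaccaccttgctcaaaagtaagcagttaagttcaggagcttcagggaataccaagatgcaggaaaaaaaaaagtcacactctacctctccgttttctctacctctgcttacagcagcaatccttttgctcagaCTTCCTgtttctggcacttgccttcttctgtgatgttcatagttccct
Epor: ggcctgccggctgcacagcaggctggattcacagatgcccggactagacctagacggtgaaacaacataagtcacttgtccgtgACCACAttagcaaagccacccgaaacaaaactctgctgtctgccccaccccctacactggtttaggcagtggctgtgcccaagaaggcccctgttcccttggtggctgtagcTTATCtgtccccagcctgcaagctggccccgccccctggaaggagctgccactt
Of the 7 members in the table, 5 held AGGAAG. The Csf3r window had 4 matches, the Kit and Il7r windows 1 each, and those of Csf2ra and Il3ra, which were not called, 2 and 1. The only GATAA match among the 7 members in the table was that of Epor, read as TTATC on the gene's strand and ending 50 bases before the start. Among 27025 upstream windows of the same length, 29.2% held AGGAAG, 23.0% GATAA, 14.2% TGTGGT and 3.09% GTAAACA. A match describes the letters in these windows and is not evidence of binding.

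Kit, the receptor for stem cell factor, had a lower mean at each successive stage. Its main probe set read 249 and 338 on the MKP arrays, 160 and 192 on MK3, 153 and 133 on MK4 and 45.2, 111 and 108 on MK6, in scaled signal. The order was MKP, MK3, MK4, MK6 from high to low, and no pair of neighbouring stages overlapped. On the log2 scale with a pseudocount of 15.2 the means were 6.61 ± 0.60 (SD, n = 3) in MK6 and 8.26 ± 0.29 (SD, n = 2) in MKP. Kit fell by 1.64 ± 0.33 (SE) in MK6 against MKP, 0.320-fold on this scale (adjusted p = 0.0190, limma). The steps were -0.68 ± 0.36 for MK3 against MKP, -0.27 ± 0.36 for MK4 against MK3 and -0.69 ± 0.33 for MK6 against MK4, none past the threshold (adjusted p = 0.60, 0.9988 and 0.4999).

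The other Kit probe set gave the larger difference. It read 225 and 270 on MKP, 78.4 and 53.5 on MK3, 33.8 and 33.1 on MK4 and 9.87, 22.7 and 18.6 on MK6. All MK4 and MK6 values lie below the filter of 46.7, so the size of the difference depends on the pseudocount. With every probe set tested on its own it was -3.04 ± 0.31 in MK6 against MKP (adjusted p = 0.00224) and -2.39 ± 0.28 for the later stages against MKP (adjusted p = 0.00855), where no other receptor probe set was called. The main probe set gave -1.09 ± 0.29 for the later stages (adjusted p = 0.13). Mast cells also carry Kit. In MK6 against MKP, 2.76% of all tested genes were called higher and 2.94% lower. Of the 8 tested mast cell and basophil markers, 0 rose and 1 fell in MK6 against MKP, the histidine decarboxylase gene Hdc (-3.14 ± 0.44, adjusted p = 0.00611). Their sum over 9 markers was 647 to 781 in MK6 and 952 and 1213 in MKP, with 1248 and 2367 in MK3, and Mcpt4 was below the filter on all arrays. The part of these cells in the Kit values was not tested.

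Flt3, a receptor of early multipotent and dendritic progenitors, stayed close to the filter. It read 48.8 to 108 in MK6 and 79.3 and 90.5 in MKP, and the difference was -0.24 ± 0.34 (adjusted p = 0.69, limma). Stage means ran from 6.40 (MK4 and MK6) to 6.64 (MKP), with SDs within stages of 0.11 to 0.48. Of 3 tested dendritic cell markers, none was called in limma (1 at an unadjusted p below 0.05), and their sum over 4 markers was 196 to 472 in MK6 and 137 and 172 in MKP.

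Csf1r, the receptor that sustains macrophages, was highest in MK3. Its main probe set read 2099 and 1505 on MKP, 5200 and 2494 on MK3, 1767 and 2032 on MK4 and 1331, 724 and 782 on MK6. MK3 lay above and MK6 below every other stage on this probe set, and the MKP and MK4 arrays overlapped. The same held for both other probe sets, which read 215 to 353 in MK6 and 639 and 772 in MKP, and 107 to 192 in MK6 and 343 and 459 in MKP. Across the 9 arrays the 3 probe sets correlated pairwise at Pearson's r of 0.978 to 0.991, as probes of 1 transcript on shared arrays.

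The Csf1r difference between MK6 and MKP was -0.95 ± 0.36 on the main probe set (adjusted p = 0.14, limma), not past the threshold. With every probe set tested on its own the other 2 passed, at -1.36 ± 0.33 (adjusted p = 0.0369) and -1.38 ± 0.37 (adjusted p = 0.0480). The MK3 peak stood 1.01 ± 0.39 above MKP (adjusted p = 0.40), and MK4 lay 0.92 below MK3 (adjusted p = 0.9988). MK6 lay 1.05 below MK4 (adjusted p = 0.34).

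Macrophages are the best known carriers of Csf1r. The sum of their markers over 13 genes was 14953 and 28843 in MK3 and 10421 and 12307 in MKP, and 13793 to 32507 in MK6. MK3 replicate 1 had the higher value of its stage for both Csf1r and this sum, while the highest sum of all stood on MK6 replicate 1, where Csf1r read 1331. Of the 13 tested markers, 1 rose in MK3 against MKP (0.0532% of all genes), the mannose receptor Mrc1 (3.06 ± 0.37, adjusted p = 0.0110, limma). In either direction, 8 of the 13 had an unadjusted p below 0.05 (931 of all 9397 genes), and their median difference was 1.17 over the 13. In MK6 against MKP 3 rose (Mmp12, Cd68 and Ctss) and 2 fell (Ccr2 and Itgam), where 2.76% of all genes rose and 2.94% fell. Hepatocyte markers were highest in MK3 too, and their sum over 7 genes was 3143 and 4041 there, 598 and 633 in MKP, 494 and 1052 in MK4 and 126 to 326 in MK6. In MK3 against MKP all 7 had an unadjusted p below 0.05 in limma, and 1 was called higher, Ttr (3.45 ± 0.38, adjusted p = 0.00624). The part of macrophages and hepatocytes in the Csf1r values was not tested.

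The GM-CSF receptor chain Csf2ra read 443 and 396 on MKP, 814 and 385 on MK3, 304 and 419 on MK4 and 179, 216 and 109 on MK6. All MK6 values lay below those of every other stage, whereas MKP, MK3 and MK4 overlapped. MK6 differed from MKP by -1.29 ± 0.35 (adjusted p = 0.0547, limma) and from MK4 by -1.07 ± 0.35 (adjusted p = 0.31). Another Csf2ra probe set did not follow, with 43.8 to 126 on the 9 arrays, a difference of 0.47 ± 0.35 (adjusted p = 0.43) and a correlation with the first of -0.36 over the 9 arrays.

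Il3ra, the interleukin-3 binding chain, was above the filter on 5 of 9 arrays only. It read 20.7, 57.3 and 41.6 in MK6 and 34.2 and 61.4 in MKP, and the stages overlapped (difference -0.22 ± 0.39, adjusted p = 0.76, limma). Csf2rb, the chain shared by the GM-CSF, interleukin-3 and interleukin-5 receptors, showed no called difference. It read 1195 and 1404 on MKP, 1194 and 1338 on MK3, 1018 and 1453 on MK4 and 1163, 1321 and 745 on MK6. The MK6 minus MKP difference was -0.30 ± 0.28 (adjusted p = 0.53), and every stage overlapped its neighbours. Its mouse paralogue Csf2rb2, which serves interleukin-3 alone, read 1203, 1039 and 996 in MK6 and 490 and 598 in MKP (0.97 ± 0.26, adjusted p = 0.0520). The 2 genes are close in sequence, which makes their separate signals uncertain. A further probe set annotated to both was left out.

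Il7r, the interleukin-7 receptor alpha chain, had the largest difference among the 9 receptors in MK6 against MKP. It read 81.5 and 87.2 on MKP, 462 and 230 on MK3, 208 and 779 on MK4 and 1603, 709 and 796 on MK6. Both MKP arrays were below all 7 later ones, and the order of means was MKP, MK3, MK4, MK6 from low to high. MK3 and MK4 overlapped, and so did MK4 and MK6. The log2 means were 9.94 ± 0.63 (SD, n = 3) in MK6 and 6.64 ± 0.059 (SD, n = 2) in MKP, a rise of 3.31 ± 0.51 or 9.89-fold on this scale (adjusted p = 0.00788, limma). MK3 lay 1.78 ± 0.56 above MKP (adjusted p = 0.26), MK6 lay 1.22 ± 0.51 above MK4 (adjusted p = 0.45), and the later stages together 2.39 ± 0.45 above MKP (adjusted p = 0.0531).

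A second Il7r probe set followed the first, with 700, 274 and 270 in MK6 and 41.2 and 47.7 in MKP (2.71 ± 0.52, adjusted p = 0.0162) and a Pearson's r of 0.991 with it over the 9 arrays. Lymphocytes are the best known carriers of this receptor. Of 14 lymphoid markers on the array, 7 were below the filter on all 9 arrays, among them the T cell genes Cd3e and Cd3g and the B cell factors Ebf1 and Pax5. Their sum was 244 to 618 in MK6 and 356 and 381 in MKP, so the MKP values lay inside the MK6 range. None of the 5 tested was called in limma (1 at an unadjusted p below 0.05). The sum of macrophage markers given above was highest on MK6 replicate 1 (32507), the array with the highest Il7r (1603). It was next highest on MK3 replicate 1 (28843), where Il7r read 462, and MK3 replicate 2 had 14953, with Il7r at 230. MK4 replicates 1 and 2 had sums of 12954 and 19249, with Il7r at 208 and 779. MKP replicates 1 and 2 had 12307 and 10421, with Il7r at 81.5 and 87.2. Within each of MK3, MK4 and MK6, the array with the highest sum also had the highest Il7r. MK6 replicates 2 and 3 had sums of 13793 and 15990, with Il7r at 709 and 796. The part of lymphocytes and macrophages in the Il7r values was not tested.

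**Figure D2:**
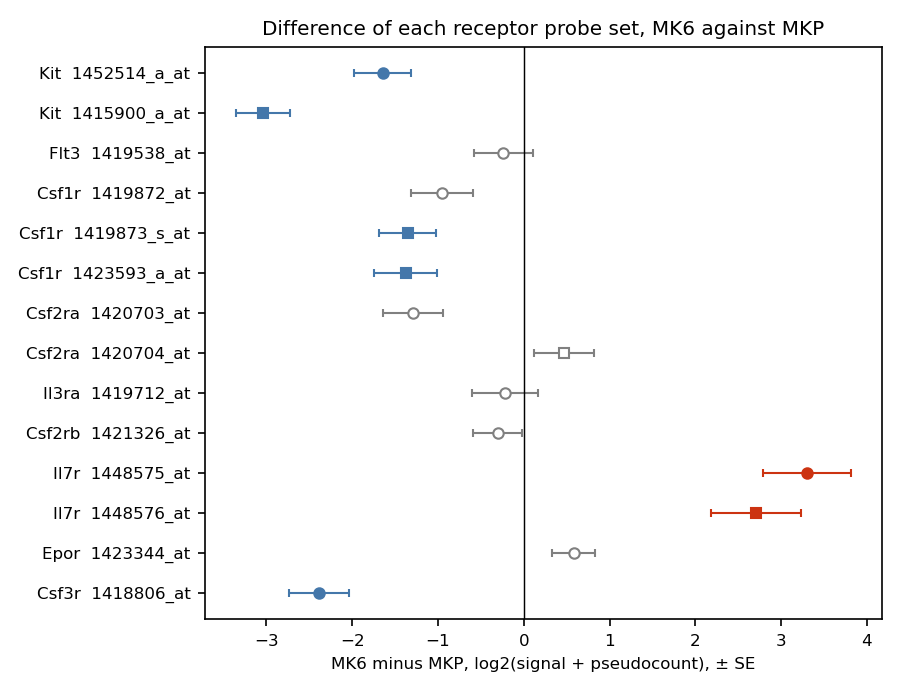
MK6 minus MKP difference of each receptor probe set on the log2(signal + pseudocount) scale, with the SE of the limma fit over all probe sets. Circles are the probe set used for the gene and squares the others, and filled symbols passed an adjusted p of 0.05. Both Il7r probe sets are higher, both Kit probe sets, Csf3r and 2 of the 3 Csf1r probe sets are lower.

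Epor, the erythropoietin receptor, had its lowest mean in MKP but passed no test. It read 152 and 209 on MKP, 243 and 335 on MK3, 311 and 285 on MK4 and 311, 289 and 230 on MK6. The MKP arrays were the lowest, and the later stages overlapped one another. The differences were 0.58 ± 0.24 for MK6 against MKP (adjusted p = 0.18, limma), 0.64 ± 0.27 for MK3 against MKP (adjusted p = 0.45) and 0.64 ± 0.22 for all later stages (adjusted p = 0.21). None of 5 tested erythroid markers was called in limma (1 at an unadjusted p below 0.05). Their sum over 9 markers, each by its probe set of highest mean, was 242 to 475 in MK6 and 348 and 401 in MKP. In that sum Car1, Epb42, Rhag and Slc4a1 were below the filter on all arrays. The tested Slc4a1 probe set was a different one, at 52.2 on MKP replicate 2 and 58.6 on MK3 replicate 2.

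Csf3r, the G-CSF receptor of the neutrophil lineage, had a lower mean at each successive stage and was lowest in MK6. It read 719 and 599 on MKP, 563 and 310 on MK3, 371 and 412 on MK4 and 157, 136 and 65.2 on MK6. All 3 MK6 arrays lay below all others, and MK3 and MK4 overlapped. The log2 means were 6.999 ± 0.59 (SD, n = 3) in MK6 and 9.39 ± 0.18 (SD, n = 2) in MKP. Csf3r fell by 2.39 ± 0.35, to 0.191-fold on this scale (adjusted p = 0.00621, limma). The first step, MK3 against MKP, was -0.63 ± 0.38 (adjusted p = 0.66, limma), and both MK3 arrays lay below both MKP arrays. The last step, MK6 against MK4, was -1.67 ± 0.35 (adjusted p = 0.12).

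Neutrophils are the best known carriers of Csf3r. Of 13 tested neutrophil markers, 0 rose and 6 fell in MK6 against MKP (2.76% and 2.94% of all genes). The 6 were Elane, Ctsg, Prtn3, Mpo, Chil3 and Camp, and 7 did not pass. The median difference over the 13 was -1.88. The sum over the 13 markers was 15250, 30276 and 7194 on MK6 replicates 1, 2 and 3, 28449 and 26653 on MK4 and 49749 and 40766 on MKP. MK6 replicate 2 had a higher sum than both MK4 arrays, while its Csf3r read 136, against 371 and 412 on MK4. Ngp, S100a8 and S100a9 were the largest terms of that sum, at 5145, 5820 and 8374. Elane, Ctsg, Prtn3, Mpo and Chil3 were lower on this array than on both MK4 arrays. Camp, Lcn2, Ltf, Ngp, S100a8 and S100a9 were higher, and Mmp8 and Mmp9 lay between. The part of granulocytes in the Csf3r values was not tested.

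**Figure D3:**
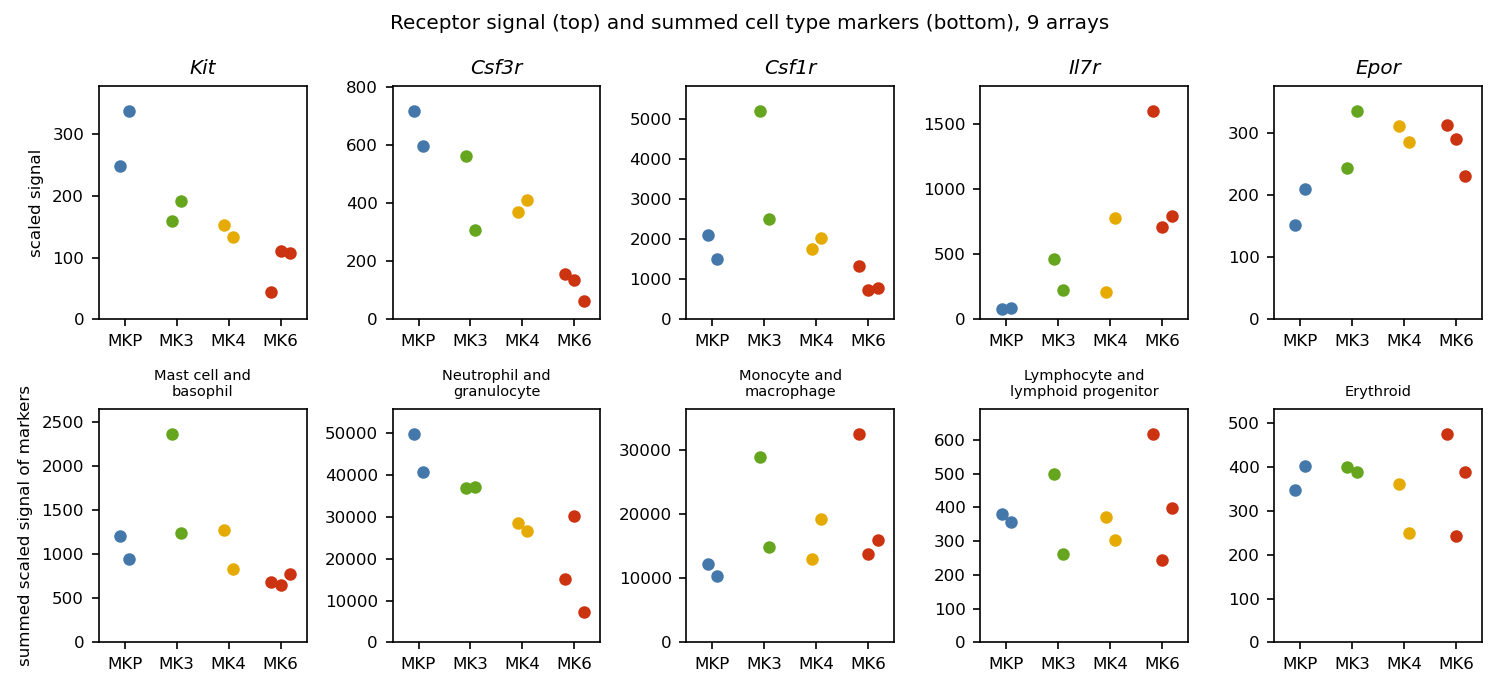
Scaled signal of 5 receptor genes (top) and the summed scaled signal of markers of a cell type known to carry each (bottom), per array and stage, on linear axes from 0. Csf3r is lower on every MK6 array than on all other arrays, whereas the neutrophil sum of MK6 replicate 2 (30276) lies above both MK4 arrays. The largest terms of that sum are Ngp, S100a8 and S100a9, and some other markers, such as Elane and Mpo, are lower there than on MK4. The lymphoid sums of the MKP arrays (356 and 381) lie inside the MK6 range, while Il7r is higher in MK6.

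Leaving out 1 MKP array ended the calls of Kit, Il7r and Csf3r, with differences close to those over all arrays. MKP then has 1 array, which is assumed to vary like the other stages. Without MKP replicate 1 the differences were -1.85 for Kit, 3.26 for Il7r and -2.26 for Csf3r (adjusted p = 0.14, 0.12 and 0.12, limma), and 3 genes in all were called. Without MKP replicate 2 they were -1.43, 3.35 and -2.52 (adjusted p = 0.20, 0.0873 and 0.0684), and 22 genes in all were called. Without MK6 replicates 1 and 3, which leaves 1 MK6 array under the same assumption, Csf3r alone was called (-2.16, adjusted p = 0.0481), with Il7r at 2.87 (adjusted p = 0.11) and Kit at -1.29 (adjusted p = 0.10), and 47 genes in all. With the 3' to 5' ratio of beta-actin added to the model, the adjusted p was 0.28 for Kit, 0.24 for Il7r and 0.28 for Csf3r, and their differences were -1.96, 3.51 and -1.59. In that fit 0 of all 9397 genes were called in limma (943 at an unadjusted p below 0.05).

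The genes whose 9 log2 values were most like those of each receptor were listed by Pearson's r over the 9 arrays, which fall in 4 stages. For Kit they were Dna2 (0.977), G3bp1 (0.977) and Timeless (0.973), and for Csf3r Orai1 (0.987), Napsa (0.985) and Ppp4c (0.983). Il7r was most like Clec4d (0.992), Ctsl (0.982) and Fblim1 (0.982), Csf1r like Tlr4 (0.975), Icam1 (0.973) and Tor1aip1 (0.970), and Csf2ra like Zfp36 (0.980), Igsf6 (0.980) and Ctsc (0.975). For Flt3 they were Kdm3b (0.974), Aatk (0.936) and Tvp23a (0.931), and for Il3ra Lactb (0.961), Srrd (0.949) and Dhx9 (0.946). For Csf2rb they were Gyg (0.966), Ptpn2 (0.926) and Eif2ak2 (0.921), and for Epor Smap1 (0.971), Tg (0.929) and Tsc22d1 (0.922). The highest of 9397 genes are listed here, so such values are a description of these arrays.

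Around the receptors, the signalling genes were lower in part, and ligands, other receptors and inhibitors gave no call in MK6 against MKP. Of 20 tested signalling genes downstream of these receptors, 0 rose (2.76% of all genes) and 5 fell (2.94%), with a median difference of -0.44. The 5 were the lymphoid and myeloid PI3-kinase subunit Pik3cd (-1.56 ± 0.30, adjusted p = 0.0175), the adaptor Grb2 (-0.93 ± 0.22, adjusted p = 0.0370), the kinase Jak3 (-1.05 ± 0.26, adjusted p = 0.0402), which pairs with the common gamma chain, and Stat3 (-1.16 ± 0.29, adjusted p = 0.0423) and Stat5a (-0.88 ± 0.23, adjusted p = 0.0499), all by limma. Jak2, the kinase bound by the erythropoietin receptor, lay at 0.41 ± 0.24 (adjusted p = 0.32). The count of falls was 3 with quantile normalization, 1 with a common median and 0 with unscaled values, 0 without either MKP array, 0 without MK6 replicate 3, 0 without MK6 replicates 1 and 3, and 0 with the beta-actin ratio in the model, with 0 rises in each. The falls numbered 1 without the intensity trend, 1 with the arrays of the 2 stages alone and 7 without MK6 replicate 2, with 0 rises in each. Over all tested genes 180, 179 and 531 fell in these settings. The count of falls was also below 5 when either MK3 array or either MK4 array was left out. With array weights 2 rose and 9 fell, where 1384 of all 9397 genes rose and 1204 fell.

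Of 6 tested ligand genes none was called in limma (1 at an unadjusted p below 0.05), with Il11 at 0.94 and Csf1, the ligand of Csf1r, at -0.71. Of 21 other cytokine receptors none was called (4 unadjusted), the largest differences being -1.02 for the interferon gamma receptor chain Ifngr1 and the 0.97 of Csf2rb2. Of 11 signalling inhibitors none was called (2 unadjusted), with the Jak2 adaptor Sh2b3 at -1.33 and Socs2 at -0.80. The median differences were 0.20 for the ligands, 0.11 for the other receptors and -0.20 for the inhibitors. With unscaled values the first 2 turned to -0.55 and -0.13, with quantile normalization the ligands to -0.32, and with a common median the other receptors to -0.0020. With the beta-actin ratio in the model the ligands turned to -0.38 and the inhibitors to 0.042. Without MK6 replicates 1 and 3 the ligands turned to -0.57 and the other receptors to -0.16. The ligands also turned with the stricter filter (-0.030), and without MKP replicate 2 (-0.11), MK4 replicate 2 (-0.13), MK6 replicate 1 (-0.14) or MK6 replicate 3 (-0.023). The other receptors turned with array weights (-0.0049) and without MK6 replicate 1 (-0.061). Among the scalings, 1 other receptor was called higher with quantile normalization and 1 inhibitor lower with a common median. With the mean of probe sets 1 other receptor was higher and 1 inhibitor lower. Array weights called 1 ligand higher and 1 lower, 3 other receptors higher and 2 lower, and 3 inhibitors lower. Without MK6 replicate 1, 1 other receptor and 1 inhibitor were lower, and without MK6 replicate 2, 1 ligand was higher. Calls were also made among the other receptors when either MK3 array or either MK4 array was left out, which leaves 1 array of that stage. Without MK6 replicates 2 and 3, which leaves 1 MK6 array, calls were made among the ligands and the other receptors.

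Among 14 transcription factors known to act on genes of this family, 1 rose and 4 fell in MK6 against MKP (2.76% and 2.94% of all genes). Foxo3 rose by 1.18 ± 0.22 (adjusted p = 0.0149, limma), a call that ended with a common median and with unscaled values. Its relative Foxo1, known to activate Il7r in lymphocytes, lay at 0.79 (adjusted p = 0.099). The lymphoid factor Ikzf1 (-3.34 ± 0.35), the granulocyte factor Gfi1 (-3.19 ± 0.56), the progenitor factor Myb (-3.01 ± 0.58) and Spi1 (-1.31 ± 0.31), which encodes PU.1 and is known to activate myeloid receptor genes such as Csf1r, fell with adjusted p of 0.00225, 0.0122, 0.0175 and 0.0332. Ikzf1 was below the filter on all 3 MK6 arrays and Gfi1 on 2, so their sizes depend on the pseudocount. Without MK6 replicates 1 and 3 the counts were 0 rises and 3 falls. They were 0 and 2 without MK6 replicate 3, 0 and 0 when MKP replicate 1 was left out, 0 and 1 when MKP replicate 2 was, and 0 and 0 with the beta-actin ratio in the model. With array weights they were 2 and 6 (1384 and 1204 of all 9397 genes).

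**Figure D4:**
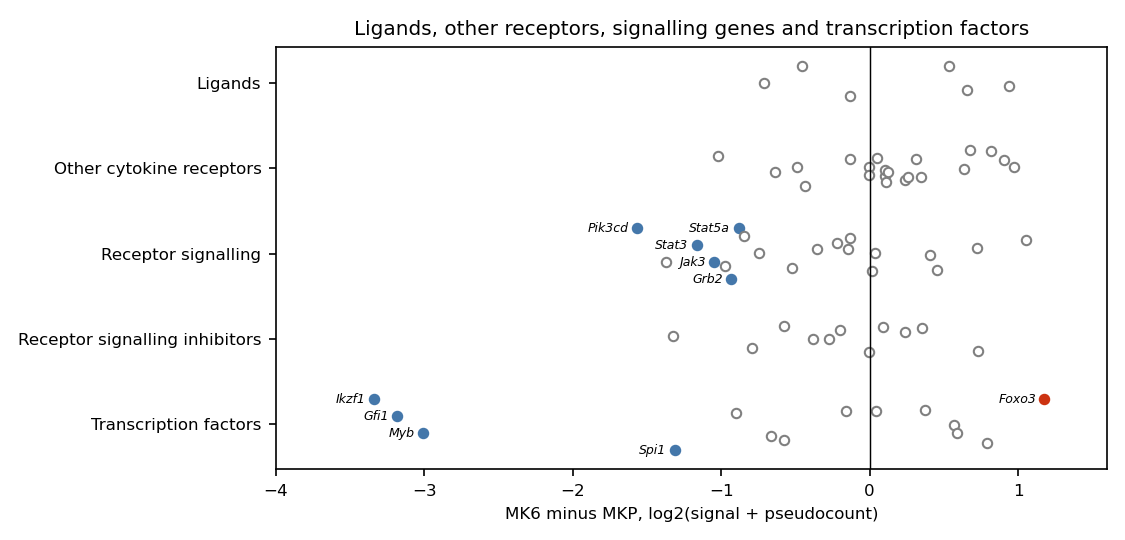
MK6 minus MKP difference on the log2(signal + pseudocount) scale for the tested genes of 5 lists around the receptors, 1 point a gene, with the vertical position within a list arbitrary. Filled, named points passed an adjusted p of 0.05 in limma. They are 5 signalling genes (all lower), 4 lower transcription factors and Foxo3 (higher).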

How the data were processed

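RNA from 9 sorted samples had been hybridised to Affymetrix MOE430A arrays, and the deposited values are probe set intensity values on a linear scale, made by the authors with MAS5 per the submitters' processing notes. No version or settings of it are given in the sources used here. Detection calls were not part of the values. Stages were taken from the titles. Replicates were numbered in accession order because the titles number only 2 of the MK6 arrays, and the numbers pair no samples.

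Each array was multiplied to a common trimmed mean of 161 (2% off each end) and transformed to log2(signal + 15.2), with the 20th percentile of signals as pseudocount. Probe sets had to exceed 46.7 (40th percentile) on 2 or more arrays. Of 22690 probe sets, 20380 had 1 gene name, 691 several, 1555 none, and 64 were controls. Names were updated through gene identifiers for 20351. The probe set with the highest mean stood for a gene, giving 9397 tested genes (14516 probe sets). One model with a mean per stage was fitted with limma 3.58.1 in R 4.3.3 (intensity trend, 5 residual degrees of freedom) and tested on simulated data. Errors after ± are standard errors unless an SD is named. Scaling leaves out any change in total RNA per cell, and the number of arrays limits the precision.

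The named genes were the 9 members, the 3 genes most like each by Pearson's r, and from each list its called members, or the 2 with the largest difference. The members and lists were chosen with earlier results of these data known. Other genes named were chosen after their values were seen.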

Additional observations from a re-analysis of the deposited data

How the results depend on the processing

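In MK6 against MKP, Il7r, Kit and Csf3r kept their direction in all 24 settings tried, with differences of 2.87 to 4.02, -2.34 to -1.29 and -2.83 to -1.59. Csf2ra, not called as fitted, was called lower in 5 of these settings. With every probe set tested on its own, Csf1r was called besides Il7r, Kit and Csf3r. The count of called receptor genes was 3 and became 5 with array weights, 0 with beta-actin's 3' to 5' ratio as covariate (where 0 of all 9397 genes were called) and 1 without MK6 replicates 1 and 3, a choice made after seeing the data. It was 0 to 4 with 1 array left out. The F test count of 2 became 1 with quantile normalization and without the intensity trend, 4 with the mean of probe sets and with every probe set tested, 5 with array weights, 0 with the covariate, 0 without MK6 replicates 1 and 3, and 0 to 4 with 1 array left out. For the later stages against MKP, 0 became 1 with unscaled values, with the mean of probe sets and with every probe set, 4 with array weights, 3 without MK6 replicates 2 and 3, and 0 to 3 with 1 array left out. For MK3 against MKP, 0 became 1 (Il7r) with the arrays of both stages alone, where 209 of all 9397 genes were called. For MK6 against MK4, 0 became 1 with unscaled values (Csf3r), 3 with array weights and 1 without MK6 replicates 2 and 3 (Kit). Over all 9397 genes, array weights gave 1135 calls for the later stages, 521 for MK6 against MK4 and 1744 in the F test. For the later stages, unscaled values gave 25, the mean of probe sets 50 and every probe set 36 of 14516. For MK6 against MK4, unscaled values gave 71. The F test gave 143 with quantile normalization, 99 without the intensity trend, 255 with the mean of probe sets, 376 of 14516 with every probe set and 2 with the covariate. In MK6 against MKP the signs of uncalled members turned in 6 cases. There were 21 further member differences in the other comparisons, none of them given above except that of Csf3r in MK3 against MKP. Of these 21, 18 turned in some setting and 0 were called in any. Csf2rb was 0.24 with the covariate and 0.028 without MK6 replicates 1 and 3, Flt3 was 0.30 without MK6 replicates 2 and 3, and Il3ra was -0.53 to 0.098 with 1 array left out (0.098 without MKP replicate 2, 0.062 without MK6 replicate 1) and 0.24 without MK6 replicates 1 and 3. The causes were not tested. The stricter filter left out Il3ra, which then has no value. Over all genes, 535 were called in MK6 against MKP, 259 higher and 276 lower, against 56 higher and 144 lower with unscaled values, where the median of all genes was -0.20 (0.0052 with a common median). The count was 2588 with array weights, 1003 of 14516 with every probe set, 1090 without MK6 replicate 2, 1830 without MK6 replicates 2 and 3, 150 without MK6 replicate 3, and over all settings 0 to 2588. The ranges over all settings were 0 to 209 for MK3 against MKP (5 as fitted), 0 to 4 for MK4 against MK3 (1), 0 to 521 for MK6 against MK4 (2), 0 to 1135 for the later stages (29) and 2 to 1744 for the F test (262). No paired analysis was possible because the labels number the replicates of MK6 alone. Il3ra, Flt3 and the weaker Csf2ra probe set lie near the filter, which limits what these arrays resolve for them.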
